A study of Mus musculus with 35 samples.

Results

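The RNA of fibroblasts that lived on 1 of 2 mutants of NELFB, MT486 or MT194, was compared 7 days after the endogenous Nelfb gene had been deleted with Cre. The libraries were chosen by their labels: 2 populations with MT486 and Ad-Cre (MT486-Cre) and 2 with MT194 and Ad-Cre (MT194-Cre), which makes 4 of the 35 libraries in the series. All 4 were mouse embryonic fibroblasts (MEFs) with 1 floxed and 1 null allele of Nelfb (Nelfb flox/-), immortalized before use, that carried a mutant mouse NELFB cDNA in a pLenti vector under a viral (CMV) promoter and had been infected with an adenovirus for Cre and GFP (Ad-Cre-GFP). Populations with the same constructs and Ad-GFP, in which the floxed allele stays intact, served as background (MT486-GFP and MT194-GFP, 2 each). Further populations after Ad-Cre carried the empty vector (EV-Cre), wild-type NELFB (WT-Cre) or a construct labelled DMT whose label names both mutations (DMT-Cre), with 2 libraries each. Single clones selected after Cre were available as 3 MT486 and 3 MT194 clones. The populations were made in independent experiments, which the replicate numbers were taken to mark, and replicate 1 was paired with replicate 1 and replicate 2 with replicate 2. By the study's methods, each construct was brought in by lentivirus and selected to give a stable cell line, and Cre was applied to these lines. Whether the 2 experiments used separately transduced lines is not given in the sources used here. A difference between the mutants can thus include a difference between lines, and these libraries cannot tell the 2 apart.

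NELFB is the subunit that bridges the negative elongation factor, NELF, which binds NELFA and NELFC (or its shorter form NELFD) on one side and NELFE on the other. Together with DSIF, NELF holds RNA polymerase II in a paused state shortly after initiation, and the kinase P-TEFb releases it into elongation. By the study's binding assays, MT194 no longer bound NELFA or NELFC but kept NELFE. MT486 no longer bound NELFE but kept at least some binding to NELFA and NELFC. The study placed MT194 mainly in the cytoplasm and MT486 mainly in the nucleus, so that the comparison sets 2 different partial losses of the complex side by side.

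The changes that define the mutants are shown here because everything that differs by design between the 2 groups lies in them. In the mutagenesis primers, the 3 codons that were turned into alanine codons are in capitals, above the same stretch of the Nelfb transcript in GENCODE M21, read 5′ to 3′ on the coding strand.
MT194 primer: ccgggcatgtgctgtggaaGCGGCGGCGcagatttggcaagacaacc
Nelfb at the MT194 site: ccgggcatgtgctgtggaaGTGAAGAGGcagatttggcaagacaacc
MT486 primer: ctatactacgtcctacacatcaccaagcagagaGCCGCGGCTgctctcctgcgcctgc
Nelfb at the MT486 site: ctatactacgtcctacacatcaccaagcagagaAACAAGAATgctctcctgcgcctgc
The MT194 primer differed from the transcript at 5 of 47 bases and replaced GTG AAG AGG with GCG GCG GCG. The MT486 primer differed at 6 of 58 bases and replaced AAC AAG AAT with GCC GCG GCT. Nelfb lies on the minus strand of chromosome 2 from 25199712 to 25211489 (GRCm38, which is mm10). The MT194 codons lie in its exon 4 of 13, at chr2:25210010-25210018, and the MT486 codons in exon 10, at chr2:25203169-25203177. Counted from the annotated start of this transcript they are codons 196 to 198 and 488 to 490, each 2 higher than in the names of the mutants. That annotated start codon is not ATG, so these numbers hold for this annotation alone. Counts per gene do not tell the 2 constructs apart, since reads of either cDNA and of the endogenous gene all fall on Nelfb.

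Between 20175394 and 24873566 reads per library fell on genes (24644148 and 24873566 in MT194-Cre, 20175394 and 23819233 in MT486-Cre). Reads on no gene made up 14.2% and 15.3% in MT194-Cre and 14.6% and 19.7% in MT486-Cre. Levels are given as CPM, reads on a gene scaled to the library total, after TMM normalization, with replicate 1 first. A gene was called where edgeR's quasi-likelihood test gave a Benjamini-Hochberg adjusted p under 0.05 and the 2 groups differed by more than 0.5 on the log2 scale in either direction, in a fit over all 20 populations with the replicate number as a block. Replicates differed more than mutants did: the median gene differed by 0.376 (log2) between the 2 replicates of MT194-Cre and by 0.334 between those of MT486-Cre, but by 0.157 and 0.201 between the mutants within pair 1 and pair 2. All p-values below with a block rest on this pairing.

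Nelfb RNA was measured first, as a check of the labels. EV-Cre, with no ectopic NELFB, held 7.97 and 5.46 CPM. Nelfb stood at 104 and 119 CPM in MT194-Cre and at 116 and 128 CPM in MT486-Cre, so that all 4 libraries lay far above EV-Cre and the ranges of the mutants overlapped. The log2 fold change of Nelfb was 0.13 (standard error 0.15, adjusted p = 0.664). WT-Cre held less, 75.9 and 60.5 CPM, and DMT-Cre more, 169 and 208 CPM. Nelfa (0.19, adjusted p = 0.255), Nelfcd, which encodes NELFC and NELFD (0.02, adjusted p = 0.926), and Nelfe (0.15, adjusted p = 0.441) were not called either. Across the 12 genes of NELF, DSIF and P-TEFb, 0 were called, beside 2.69% of all genes tested. Their median log2 fold change was 0.04, with single genes from −0.08 to 0.38.

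**Figure D1:**
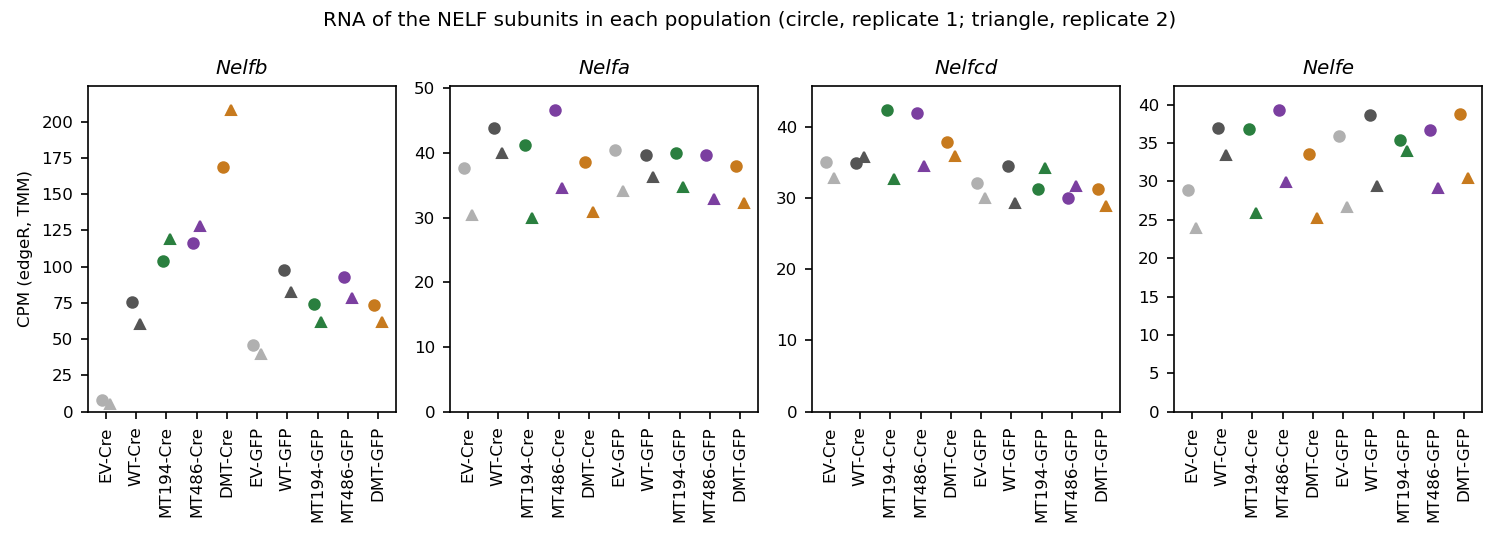
CPM (vertical axis, linear) of Nelfb, Nelfa, Nelfcd and Nelfe in the 20 populations, grouped on the horizontal axis, with circles for replicate 1 and triangles for replicate 2. Nelfb lies between 104 and 128 CPM in MT194-Cre and MT486-Cre and at 7.97 and 5.46 CPM in EV-Cre, while the 3 other subunits overlap between the mutants.

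The libraries held the RNA of fibroblasts. Col1a1, a main collagen of fibroblasts, stood at 3340 and 8180 CPM in MT194-Cre and 3590 and 6940 CPM in MT486-Cre. Fn1 was the most abundant of the 14 fibroblast markers, with a mean of 17100 CPM, and 1 of the 14 was nearly absent, at under 1 CPM. None of the 13 fibroblast markers tested was called, beside 2.69% of all genes tested. Their median log2 fold change was −0.26, and it was −0.05 without MT194-Cre replicate 2, with 6 of 13 above 0. Without MT194-Cre replicate 1 the median was −0.30, with 2 of 13 above 0. With only the groups compared, S100a4 was called higher, against the direction of the list, whose median was −0.26 in that fit as well. Ptprc, which marks leukocytes, had 1 read in each of the 4 libraries, Epcam, of epithelia, had 0 reads in all 4, and Pecam1, of endothelium, had at most 4. The macrophage and leukocyte markers summed to 207 and 392 CPM in MT194-Cre and 240 and 287 CPM in MT486-Cre, nearly all of it from Cd14, with Tyrobp and Cd3e at 0. The adipocyte list summed to 87.2 and 78.4 against 95.7 and 68.7 CPM, most of it Fabp4, with Plin1 and Lep at 0. The neural list summed to 110 and 163 against 125 and 142 CPM and was led by Nes, with Sox10 and Rbfox3 at 0. Endothelial, epithelial and skeletal muscle lists each summed to under 6 CPM in every library. In bulk RNA, fewer cells of a type and less RNA per cell cannot be told apart.

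Of 13805 genes tested, 371 were called between MT486-Cre and MT194-Cre, which is 2.69%. Fewer were higher in MT486-Cre (127, or 0.92%) than lower (244, or 1.77%). A change of more than 2-fold was found for 117 of them. The groups did not overlap for 75.5% of the called genes and for 23.4% of all genes tested. Without the replicate block, the same libraries gave 10 calls. The count also moved with single libraries: 831 without MT194-Cre replicate 1, 180 without MT194-Cre replicate 2, 109 without MT486-Cre replicate 1 and 106 without MT486-Cre replicate 2. Of the 371, 298, 127, 96 and 102 were among the calls in these 4 fits.

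**Figure D2:**
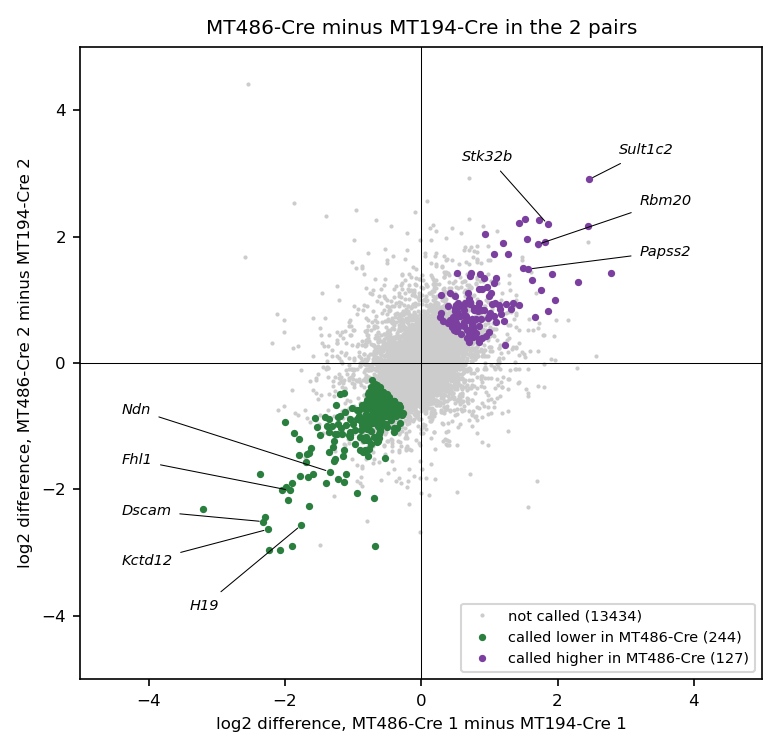
Log2 difference between MT486-Cre and MT194-Cre for each of 13805 genes in pair 1 (horizontal axis) and pair 2 (vertical axis), with the 127 genes called higher in MT486-Cre in purple and the 244 called lower in green. Called genes lie on the same side of 0 in both pairs, as a call in a blocked fit with 2 pairs largely requires.

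The largest rises in MT486-Cre are given first. Sult1c2, a cytosolic sulfotransferase on chromosome 17, stood at 2.57 and 1.01 CPM in MT194-Cre and at 14.6 and 8.16 CPM in MT486-Cre. Both MT486-Cre libraries lay above both MT194-Cre libraries, a 6.21-fold difference (log2 2.63, standard error 0.23, adjusted p = 1.38e-05). Papss2, which makes the sulfate donor that sulfotransferases use, rose from 3.71 and 2.74 to 11.2 and 7.85 CPM, again without overlap (log2 1.55, standard error 0.19, adjusted p = 0.000237). Stk32b, which encodes a kinase, stood at 1.14 and 0.674 against 4.34 and 3.42 CPM (log2 2.09, standard error 0.24, adjusted p = 0.000149). Without the replicate block the adjusted p of Sult1c2 was 0.0749, that of Papss2 0.0894 and that of Stk32b 0.107.

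Rbm20, a splicing regulator known from heart muscle, stood at 1.67 and 1.44 CPM in MT194-Cre and at 5.64 and 5.54 CPM in MT486-Cre, with little spread within either group (log2 1.83, standard error 0.21, adjusted p = 0.000149), and it was called with and without the block. Hspb8, a small heat shock protein, stood at 1.25 and 1.64 against 6.54 and 4.12 CPM (log2 1.89, adjusted p = 0.0012). Col24a1, a minor fibrillar collagen, stood at 7.27 and 12.5 against 16.8 and 46.9 CPM (log2 1.63, adjusted p = 0.00435). In these 3 genes the 2 groups did not overlap. The other genes among the 10 largest rises were Batf, an AP-1 family factor, Bnc1, a zinc finger protein, Il18rap, a subunit of the interleukin-18 receptor, and Stra6l, with log2 fold changes from 1.16 to 1.37. They were low genes, at 0.674 to 11.5 CPM over the 4 libraries, and Batf and Stra6l lost the call without MT194-Cre replicate 2 or MT486-Cre replicate 2, and Bnc1 and Il18rap without MT486-Cre replicate 1.

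The largest falls in MT486-Cre, by the same rule, follow. Kctd12, an auxiliary subunit of GABA-B receptors on chromosome 14, stood at 3.75 and 4.04 CPM in MT194-Cre and at 0.716 and 0.577 CPM in MT486-Cre, 6.02-fold lower (log2 −2.59, standard error 0.29, adjusted p = 9.28e-05). Dscam, a cell adhesion molecule of neurons, stood at 3.48 and 4.72 against 0.627 and 0.754 CPM (log2 −2.56, adjusted p = 0.00022). Fhl1, a LIM domain protein of muscle and fibroblasts encoded on the X chromosome, was the most abundant of the largest falls given here and stood at 92.0 and 101 CPM against 24 and 25 CPM (log2 −1.98, standard error 0.18, adjusted p = 8.74e-05). Within each group the 2 libraries of Fhl1 differed by little, and these 3 genes were called with and without the block.

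H19, an imprinted long noncoding RNA on chromosome 7, stood at 38.7 and 42.6 CPM in MT194-Cre and at 11.3 and 7.10 CPM in MT486-Cre (log2 −2.20, standard error 0.33, adjusted p = 0.00507). The groups did not overlap, and without the block the adjusted p was 0.225. Klhl13, an adaptor of a ubiquitin ligase, stood at 6.85 and 6.88 against 1.7 and 1.46 CPM (log2 −2.12, adjusted p = 0.00022). Khdrbs3, an RNA-binding protein of the STAR family, stood at 8.14 and 5.49 against 2.28 and 1.95 CPM (log2 −1.67, adjusted p = 8.74e-05). Both missed the threshold without the block, with adjusted p of 0.0595 and 0.0765. Mmp8, a neutrophil-type collagenase, Opcml, a cell adhesion molecule, and Ugt2b34, a glucuronosyltransferase, were lower as well, with log2 fold changes from −2.07 to −1.73. Their MT486-Cre libraries held 0.537 to 2.08 CPM and their MT194-Cre libraries 1.89 to 8.04 CPM. The call of Opcml was lost without MT194-Cre replicate 2 and without either MT486-Cre library, and that of Mmp8 without MT486-Cre replicate 1. Ugt2b34 and Sult1c2 belong to families of similar genes, so that some of their reads could have been lost to the filter on mapping quality.

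**Figure D3:**
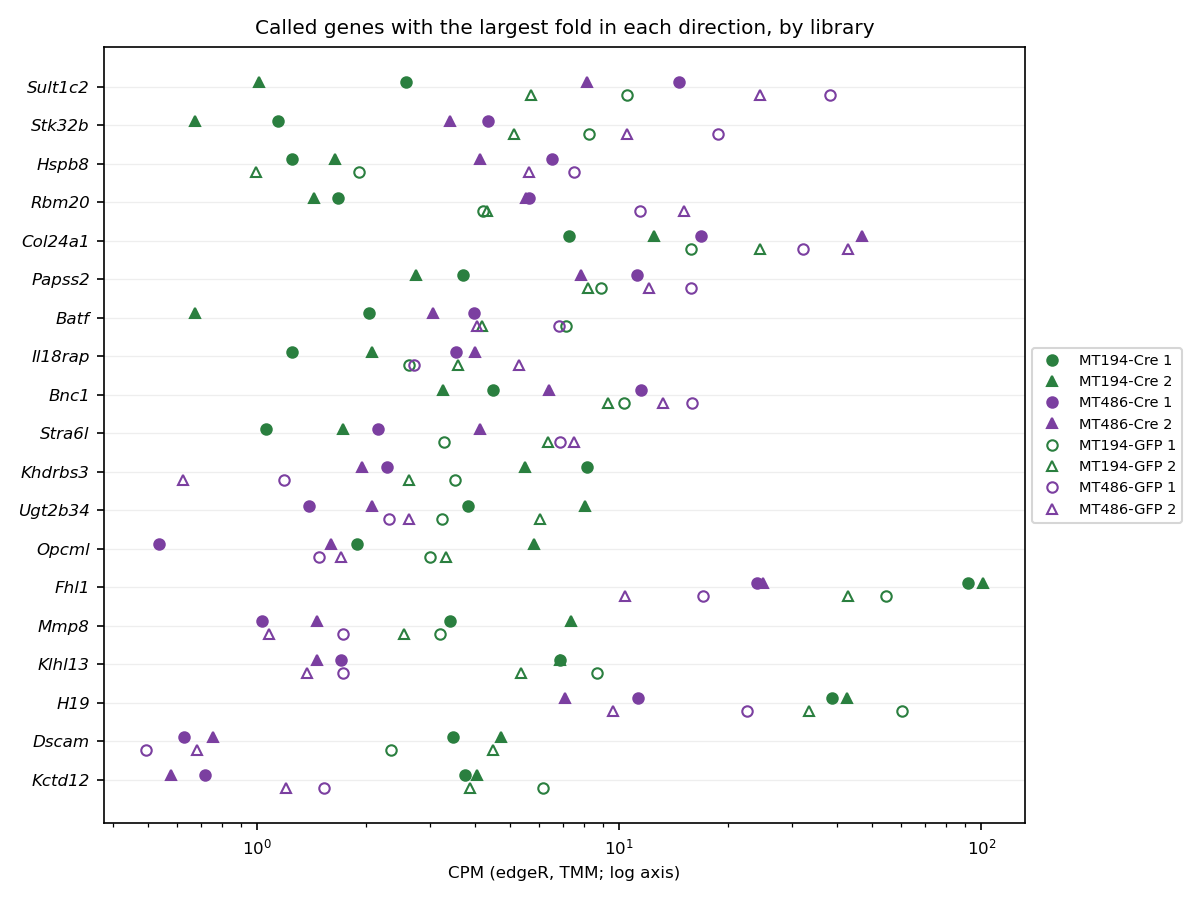
CPM on a log axis of 10 called genes with the largest rises and 9 with the largest falls, with filled symbols for Ad-Cre and open symbols for Ad-GFP, green for MT194 and purple for MT486, circles for replicate 1 and triangles for replicate 2. Filled purple and filled green symbols do not overlap in any row, which the rule for choosing these genes required.

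In all, 10 calls stood without the replicate block, of which Dscam, Fhl1, Kctd12 and Rbm20 are given above. The others were chosen after their values were seen. Ndn, an imprinted gene on chromosome 7 that encodes necdin, stood at 41.3 and 48.9 CPM in MT194-Cre against 16.2 and 14.8 CPM in MT486-Cre. Its log2 fold change of −1.54 had the smallest adjusted p with the block (4.64e-07) and without it (0.000219). Pmepa1, which restrains TGF-beta signaling, stood at 114 and 128 against 71.4 and 74.4 CPM (log2 −0.73, adjusted p = 9.28e-05). Tbx18, a T-box factor of mesenchyme, stood at 16.3 and 17.7 against 6.94 and 9.05 CPM, and Aim1 went the other way, from 8.74 and 9.29 to 19.5 and 17.7 CPM. Prl8a9, of the placental prolactin family, and Zfp518b, a zinc finger gene, both fell to under 1 CPM in MT486-Cre, from 3.29 and 3.71 CPM and from 1.67 and 2.07 CPM. In each of these 6 genes the 2 groups were apart by more than the replicates of either group differed.

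The cell cycle was described with 4 lists: cyclins, kinases and E2F regulators of G1, inhibitors of cyclin-dependent kinases (CDKs), genes of S phase and DNA replication, and genes of G2/M and the mitotic spindle. RNA of the latter 2 classes is made mostly in dividing cells, so it tracks how many cells of a culture are cycling. Of 174 genes tested in the 4 lists, 1 was called higher in MT486-Cre and 1 lower, together 1.15% against 2.69% of all genes. These counts moved with the fit. Where only the 4 libraries compared were fitted, 16 of the 174 were called higher and 1 lower, beside 381 calls among all genes. Of these, 9 were of G2/M (Birc5, Cdca3, Cenpa, Cenpe, Ect2, Incenp, Kif20b, Plk4 and Psrc1, all higher). Without the replicate block 0 were called, beside 10 among all genes. Most values lay on one side in the fit over all 20 populations: 156 of 174 had a log2 fold change above 0. Of the 174, 129 were higher in MT486-Cre in both pairs (74.1%, against 32.2% of all genes). The median was 0.26, against −0.003 for all genes tested. The lean was present in pair 1 alone, with a median of 0.10, and larger in pair 2, with 0.47. In the fit without MT194-Cre replicate 2, 78 of 174 were above 0 and the median was −0.03. That fit leaves MT486-Cre replicate 2 without its partner, so that the block over all populations sets its place. The median was 0.64 without MT194-Cre replicate 1, 0.14 without MT486-Cre replicate 1 and 0.36 without MT486-Cre replicate 2.

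By list, the mitotic genes had the largest median, and it lay mainly in pair 2. Of 81 genes of G2/M and the spindle, 78 were above 0, 0 were called, and the median was 0.29, with 0.10 in pair 1 and 0.54 in pair 2. Without MT194-Cre replicate 2, 32 of the 81 were above 0 and the median was −0.05, and for S-phase genes these were 32 of 62 and 0.02. Summed over the list, MT194-Cre held 6030 and 3450 CPM and MT486-Cre 6530 and 4970 CPM. MT194-Cre replicate 2 was thus the lowest of the 4 libraries, and the 2 groups overlapped. The 62 genes of S phase summed to 3070 and 1940 against 3370 and 2540 CPM, with 56 above 0, 0 called and a median of 0.27 (0.13 in pair 1 and 0.44 in pair 2). DESeq2 with the same block called 3 of them, Rfc5, Timeless and Tyms, all higher in MT486-Cre, beside 428 calls among all genes. In edgeR the number called rose in the fit without MT194-Cre replicate 1, as it did among all genes. In replicate 2 the EV-Cre and DMT-Cre libraries were low as well, with mitotic sums of 3090 and 1990 CPM in EV-Cre and 5270 and 3090 CPM in DMT-Cre, whereas WT-Cre held 5520 and 5970 CPM.

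**Figure D4:**
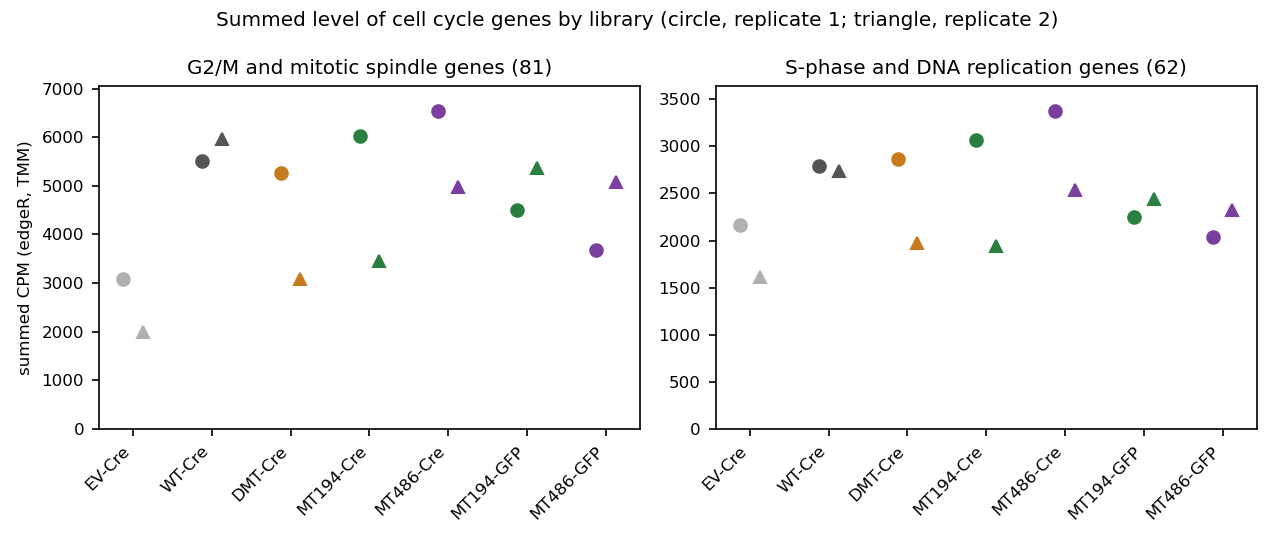
Summed CPM (vertical axis, linear) of the 81 genes of G2/M and the mitotic spindle (left) and the 62 genes of S phase and DNA replication (right) in each library, with circles for replicate 1 and triangles for replicate 2. MT486-Cre lies above MT194-Cre within each pair, by more in pair 2, while the ranges of the 2 groups overlap in both lists.

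Individual genes of these lists varied as much between replicates. Mki67, the proliferation marker Ki-67, stood at 432 and 346 CPM in MT194-Cre and at 432 and 422 CPM in MT486-Cre (log2 0.11, standard error 0.38, adjusted p = 0.903). Cdk1, the mitotic kinase, stood at 146 and 72.6 against 168 and 113 CPM (log2 0.39, standard error 0.31, adjusted p = 0.529). Replicate 2 was lower than replicate 1 in both groups for Cdk1, and the groups overlapped. Ccna2 (0.37), Top2a (0.23), Aurka (0.25), Ccnb1 (0.11) and Plk1 (0.01) had standard errors of 0.30 to 0.37 and were not called. Mcm2, of the replicative helicase, stood at 113 and 72.6 against 155 and 109 CPM (log2 0.51, standard error 0.19, adjusted p = 0.146) and passed the threshold only where the 4 libraries were fitted alone. Mcm5 (0.28), Pcna (0.03), Ccne1 (−0.02), Ccne2 (0.40), E2f1 (0.12) and Cdk4 (0.10) were not called. Without MT194-Cre replicate 2 the values of Mki67 (−0.25), Ccnb1 (−0.20), Aurka (−0.08), Top2a (−0.07), Mcm5 (−0.03), Plk1 and Pcna were below 0.

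The 2 calls fell on regulators of the G1 to S transition. Ccnd1, which encodes cyclin D1, the partner of CDK4 and CDK6, stood at 211 and 132 CPM in MT194-Cre and at 138 and 89.8 CPM in MT486-Cre. Within each pair the log2 difference was −0.62 and −0.56, while the groups overlapped (log2 −0.59, standard error 0.11, adjusted p = 0.00537). Cdkn2a, which encodes the CDK inhibitor p16 and the p53 activator ARF, stood at 26.4 and 24.3 against 47.8 and 30.6 CPM, without overlap (log2 0.60, standard error 0.13, adjusted p = 0.0129). WT-Cre held 60.7 and 54.3 CPM of Cdkn2a. Without the block neither gene was called (adjusted p = 0.963 and 0.868). Without MT194-Cre replicate 1 the log2 fold change of Ccnd1 was −0.43 and that of Cdkn2a 0.48, both under the fold threshold. Ccnd1 also lost the call without MT486-Cre replicate 2 (−0.48), and Cdkn2a without MT486-Cre replicate 1 (0.42).

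Other CDK inhibitors did not pass the threshold. Cdkn2b, the neighbour of Cdkn2a, stood at 11.3 and 11.3 against 16.9 and 14.1 CPM (log2 0.45, adjusted p = 0.0868), and Cdkn2c at 95.2 and 60.9 against 126 and 81.5 CPM (log2 0.41, adjusted p = 0.0598). Cdkn1a, the p21 gene that p53 turns on, stood at 37.2 and 18.2 against 38 and 27.5 CPM (log2 0.26, adjusted p = 0.601), and Cdkn1b at 118 and 109 against 119 and 105 CPM. Of 38 targets of p53 tested, 0 were called (beside 2.69% of all genes), and their median was 0.10. Of 32 replication-dependent histone genes tested, 3 were called, all lower in MT486-Cre (9.38%, against 1.77% of all genes), and of these Hist1h2bc fell from 61.8 and 33.6 to 35.5 and 20.3 CPM, with overlap (log2 −0.77, adjusted p = 0.00142). Hist1h1c (−0.78, adjusted p = 0.0176) and Hist1h4h (−0.75, adjusted p = 0.0276) lost the call without MT194-Cre replicate 2 and without either MT486-Cre library. These 32, of 65 listed, had a median of −0.45 (−0.69 in pair 1 and 0.06 in pair 2). Most histone mRNA lacks the poly(A) tail by which these libraries were selected, and the genes resemble one another.

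Among the lists with at least 7 tested members, the extracellular matrix held the largest share of calls in the fit over all populations with the replicate block. This rank changed with the fit: another list held a larger share without the block and in some fits that left out a library. Of 41 collagen and elastic matrix genes tested, 3 were higher and 6 lower in MT486-Cre (22%, against 2.69% of all genes), with a median of −0.09. Dcn, the proteoglycan decorin, stood at 2020 and 6170 CPM in MT194-Cre and at 1200 and 2410 CPM in MT486-Cre, so that the groups overlapped (log2 −1.12, standard error 0.29, adjusted p = 0.0412). Fbln5, an organizer of elastic fibers, stood at 123 and 232 against 75.3 and 121 CPM, narrowly without overlap (log2 −0.84, standard error 0.11, adjusted p = 0.000312). Loxl2 (−1.03) and Lox (−0.67), which crosslink collagen and elastin, Col4a1 of basement membranes (−0.83) and Fbln2 (−0.72) were lower too. Dcn was lost without MT194-Cre replicate 2 (log2 −0.50), as it was without either MT486-Cre library.

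The 3 higher matrix genes of the list were of other kinds. The collagens Col24a1, given above, and Col2a1 (log2 1.12) lay outside the list and were called higher as well. Col18a1, the source of endostatin, stood at 19.5 and 36.4 CPM in MT194-Cre and at 44.2 and 62.4 CPM in MT486-Cre, without overlap (log2 0.96, standard error 0.13, adjusted p = 0.00053). Fmod, fibromodulin, a regulator of collagen fibrils, stood at 2.80 and 12.3 against 11.2 and 24.7 CPM, with overlap (log2 1.36, adjusted p = 0.0166). Col5a3, a minor chain of type V collagen, stood at 12.4 and 31.7 against 24.5 and 51.8 CPM, with overlap (log2 0.82, adjusted p = 0.00789). In all 9 called genes of the list replicate 2 exceeded replicate 1 in both groups. The sum of the list was 41600 and 89000 CPM in MT194-Cre and 35700 and 62700 CPM in MT486-Cre. MT194-Cre replicate 2 was the highest of the 4. Without it the list had 5 genes higher and 1 lower, without MT194-Cre replicate 1 it had 3 higher and 13 lower, without MT486-Cre replicate 1 it had 2 higher and 1 lower, and without MT486-Cre replicate 2 it had 1 of each. Col18a1 and Fbln5 were called in each of these 4 fits, and 0 genes of the list without the block.

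Of 18 proteases of the matrix and their inhibitors tested, 2 were called, both lower (11.1%, against 1.77% of all genes called lower). The proteases Mmp8 (log2 −2.07), Adamts15 (−0.99) and Adamts16 (−1.16) lay outside this list and were called lower as well. Timp3, a matrix-bound inhibitor of metalloproteinases, stood at 768 and 1480 against 445 and 731 CPM (log2 −0.91, adjusted p = 0.0367). Plat, tissue plasminogen activator, stood at 307 and 594 against 217 and 363 CPM (log2 −0.61, adjusted p = 0.0102). The groups overlapped for Plat and were just apart for Timp3. The median of the list was −0.34, with 15 of 18 below 0, and the sums were 8490 and 19500 against 7120 and 11800 CPM. The median was −0.09 in pair 1 alone and −0.56 in pair 2. In the fit without MT194-Cre replicate 2 it was 0.008, with 9 of 18 above 0. The median was −0.66 without MT194-Cre replicate 1. Timp3 and Plat lost the call without MT194-Cre replicate 2 and without either MT486-Cre library.

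Each list of signaling and stress genes held at most 2 calls. Among cytokines, Csf2, the growth factor GM-CSF, stood at 0.303 and 0.626 CPM in MT194-Cre and at 1.12 and 1.69 CPM in MT486-Cre (log2 1.63, standard error 0.36, adjusted p = 0.0174). Ccl7, a chemokine for monocytes, stood at 31.6 and 44.2 against 56.5 and 78.1 CPM (log2 0.83, standard error 0.13, adjusted p = 0.00132). Neither gene overlapped between the groups, and these were 2 of 35 tested (5.71%, beside 0.92% of all genes called higher), with a median of −0.09. That median was 0.21 without MT194-Cre replicate 2, with 29 of 35 above 0, and −0.31 without MT194-Cre replicate 1. Csf2 is near 1 CPM and lost the call without MT194-Cre replicate 1 and without MT486-Cre replicate 2. Ereg, an EGF-family ligand, stood at 60.6 and 99.5 against 112 and 130 CPM (log2 0.64, adjusted p = 0.0133), and it lost the call without either replicate 1. Pmepa1, given above, was the only call of 25 TGF-beta genes tested (4%, beside 1.77% of all genes called lower).

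The counts of calls in the lists that follow stand beside the 2.69% of all genes that were called. Ftl1, the ferritin light chain that stores iron, was the only call among 27 targets of the antioxidant factor NRF2. It fell from 944 and 495 CPM in MT194-Cre to 575 and 307 CPM in MT486-Cre, by 0.71 and 0.69 on the log2 scale in the 2 pairs (log2 −0.70, standard error 0.11, adjusted p = 0.00133), although the groups overlapped. Of the 17 heat shock genes tested, Hspb8 rose as above, and Hspa1b, an inducible HSP70, fell from 41.6 and 45.4 to 28.2 and 28.4 CPM (log2 −0.62, adjusted p = 0.0104). Cmpk2, of the interferon-stimulated genes, stood at 8.44 and 8.33 against 6.40 and 3.86 CPM (log2 −0.74, adjusted p = 0.0471, 1 of 55 tested). Tubb3, a neuron-type tubulin and the only call of 4 neural markers tested, stood at 9.76 and 6.02 against 3.67 and 2.97 CPM (log2 −1.25, adjusted p = 0.0104). Rpl9 was the only call of 75 ribosomal protein genes (log2 0.66, adjusted p = 0.0461). At 3.23 to 6.12 CPM its reads were few, and like Ftl1 and Hspa1b it has near-identical copies from which filtered reads cannot be told apart. DESeq2 did not call Rpl9. It called Aldh3a1 and Slc7a11 of the NRF2 list and Hspa4l of the heat shock genes higher, and Ifit3b of the interferon-stimulated genes lower. The calls of Hspa1b, Cmpk2 and Rpl9 were lost without MT194-Cre replicate 2 and without either MT486-Cre library, and that of Tubb3 without either replicate 1 and without MT486-Cre replicate 2.

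Metabolic and kinase lists had 0 calls, beside 2.69% of all genes, a share at which a list of this size would hold few. They were 9 genes of the mevalonate pathway (median 0.002), 12 of the steps from squalene to cholesterol (−0.02), 14 of SREBP regulation and sterol uptake (−0.08), 14 of fatty acid synthesis (−0.10), 26 of the citrate cycle (−0.06), 71 of the respiratory chain and ATP synthase (0.02) and 36 of hypoxia and glycolysis (−0.13). Single libraries moved the mevalonate and squalene medians. They were 0.36 and 0.34 without MT194-Cre replicate 1, and −0.11 and −0.16 without MT194-Cre replicate 2. The 33 kinases of the PI3K-AKT-mTOR and RAF-MEK-ERK cascades had a median of 0.04. Pik3r1, a regulatory subunit of PI3K, was just under the fold threshold (log2 −0.50). It was called lower by DESeq2, with DESeq2's size factors, with no filter and with only the groups compared. With no fold threshold, Map2k7 and Rela passed higher in MT486-Cre and Pik3r1 lower. Also without a call were 34 immediate early genes (0.19), 31 ATF4 and serine synthesis genes (0.07), 24 YAP/TEAD targets (−0.05), 22 smooth-muscle genes (0.12) and 17 genes of MHC class I and antigen processing (−0.17). Without MT194-Cre replicate 2 the median of the MHC list was 0.17 and that of YAP/TEAD targets 0.07. The smooth-muscle median was −0.03 without MT486-Cre replicate 2. With only the groups compared, Fos of the immediate early genes and Ankrd1 of the YAP/TEAD targets were called higher. Slc7a5 of the ATF4 list was called lower by DESeq2 and with only the groups compared.

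**Figure D5:**
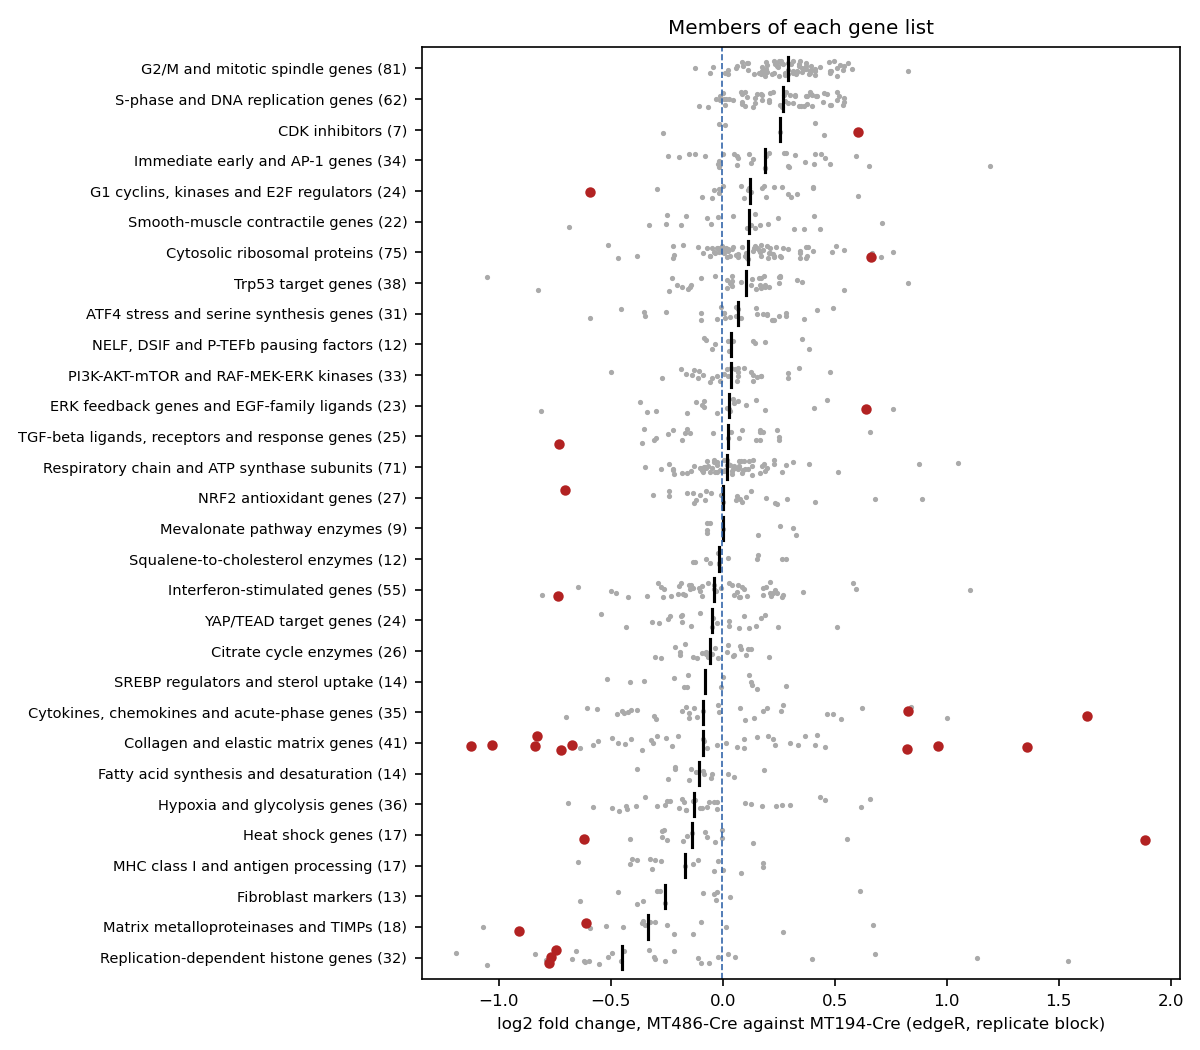
Log2 fold change of MT486-Cre against MT194-Cre (horizontal axis) for each tested member of lists with at least 7 such members, whose number stands in parentheses. Red points passed the test, black bars are list medians, and the dashed line is the median of all genes, −0.003. The medians of the G2/M (0.29) and S-phase (0.27) lists are the highest, with 0 called genes, and were −0.05 and 0.02 without MT194-Cre replicate 2, and red points are most frequent among collagen and elastic matrix genes.

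The same contrast with Ad-GFP, in which both mutants are expressed beside the intact floxed allele, shows which differences were also seen without Cre. The Cre and GFP libraries share no sample but come from the same constructs. With GFP, 121 genes were called (42 higher and 79 lower in MT486-GFP), which is 0.876% of genes (0.304% higher and 0.572% lower). Without the block there were 4 calls with GFP (Fhl1, Ndn, Rbm20 and Tmod2), and leaving out MT194-GFP replicate 1 or 2 or MT486-GFP replicate 1 or 2 gave 38, 48, 50 and 27. Of the 121, 66 were also called with Cre in the same direction, which is 54.5% of the GFP calls and 17.8% of the Cre calls. Of the 371 genes called with Cre, 344 had the same sign with GFP, beside 8601 of 13805 among all genes tested. Their median absolute log2 fold change was 0.79 with Cre, and with GFP the median in the same direction was 0.39. The genes were chosen by the size of their difference with Cre, which alone would make the GFP value smaller. The 2 medians therefore do not measure how much Cre added.

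Several of the genes with the largest differences were also called with GFP. Fhl1 stood at 54.4 and 42.8 CPM in MT194-GFP and at 17.0 and 10.4 CPM in MT486-GFP (log2 −1.83, adjusted p = 0.000477, against −1.98 with Cre). Rbm20 stood at 4.20 and 4.32 against 11.4 and 15.1 CPM (log2 1.63, adjusted p = 0.000181). Sult1c2 (1.97), Stk32b (1.12), Hspb8 (2.18), Kctd12 (−1.87), Klhl13 (−2.17), Khdrbs3 (−1.75), Dscam (−2.50), H19 (−1.55), Ndn (−1.30), Ccnd1 (−0.55) and Col18a1 (1.06) were further examples. Others were called with Cre and not with GFP. Batf stood at 7.11 and 4.18 against 6.82 and 4.04 CPM with GFP (log2 −0.05), Cdkn2a at 72.5 and 56.6 against 77.6 and 46.5 CPM (−0.07), and Plat at 171 and 304 against 168 and 306 CPM (adjusted p = 0.995). The matrix genes Dcn (−0.22), Timp3 (−0.13), Fmod (0.25) and Loxl2 (−1.07, adjusted p = 0.0595) were not called with GFP either.

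Whether the difference between the mutants itself changed with Cre was tested as a difference of differences, and 0 of 13805 genes passed (edgeR's quasi-likelihood test). At an unadjusted p under 0.05 there were 1066 genes, the smallest adjusted p was 0.43, and DESeq2 called 0 as well, with a smallest adjusted p of 0.115. Batf (1.42, adjusted p = 0.43), Cdkn2a (0.68, adjusted p = 0.43), Pmepa1 (−0.46, adjusted p = 0.43) and Plat (−0.61, adjusted p = 0.507) are thus not shown to differ between Cre and GFP. Without MT194-Cre replicate 1 this count was 63, and it was 1 without MT486-GFP replicate 2. The 4 cell cycle lists had a median of −0.13 with GFP (−0.20 in pair 1 and −0.08 in pair 2), and the mitotic sums were 4510 and 5360 CPM in MT194-GFP and 3690 and 5070 CPM in MT486-GFP.

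The populations with other constructs were set beside the 2 mutants. For each called gene, the mean log2 CPM of WT-Cre was nearer to MT486-Cre in 79.2% of cases, against 58.7% of all genes. DMT-Cre was nearer to MT486-Cre for 32.1% of the called genes, against 41.8% of all genes, and EV-Cre for 43.9%, against 45.9%. Fhl1, for example, stood at 23.3 and 22 CPM in WT-Cre, like MT486-Cre, and at 65.1 and 71.4 CPM in DMT-Cre and 56.8 and 56.7 CPM in EV-Cre, nearer to MT194-Cre. Cdkn2a was lower in DMT-Cre (24.5 and 20 CPM) and EV-Cre (19.7 and 16.3 CPM) than in either MT486-Cre library, as in MT194-Cre. Sult1c2 stood at 21.8 and 17.1 CPM in WT-Cre, above MT486-Cre, and at 2.98 and 1.91 CPM in DMT-Cre. Kctd12 and Dscam differed from this order, with DMT-Cre at 0.803 and 0.917 CPM and at 0.803 and 1.24 CPM, near MT486-Cre. H19 was high in WT-Cre, at 46.5 and 35.9 CPM, near MT194-Cre.

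The stable clones give the contrast in cells outside the fit of the populations. Each clone grew from 1 cell, so that clones of a group can also differ from one another. MT486 clones 1 and 2 stood out by how little they differed. Over genes with at least 20 reads, their chi-square per degree of freedom was 5.06, against 32.4 to 349 for every other pair of replicates in the series. That is more than sampling noise gives. The study describes its clones as independent. Il18rap, for example, held 23.6 and 23.7 CPM in them and 13.4 CPM in MT486 clone 3, and Ugt2b34 43 and 42.6 CPM against 2.07 CPM.

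With the clones counted as labelled, 46 of 13223 genes (0.348%) were called, 26 higher (0.197%) and 20 lower (0.151%) in MT486. With MT486 clones 1 and 2 counted as 1, an alternative chosen after seeing the data, edgeR called 0, with 1501 genes at an unadjusted p under 0.05. The count was also 0 without MT194 clone replicate 1 or without either of MT486 clone replicates 1 and 2, 27 without MT194 clone replicate 2 and 207 without MT486 clone replicate 3. The clone values that follow are therefore given as levels, and their adjusted p-values are those of the fit as labelled.

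Of the 371 genes called in the populations, 350 were tested in the clones and 209 of them had the same sign, beside 7357 of 12974 among all genes tested in both. They were 57 of the 123 called higher in the populations and 152 of the 227 called lower. Plat, Ednra and Glul were called in both, each lower in MT486. Plat stood at 504, 552 and 618 CPM in the MT194 clones and at 160, 183 and 296 CPM in the MT486 clones, without overlap (log2 −1.39, adjusted p = 0.0398, or 0.2445 with clones 1 and 2 counted as 1). Ednra, an endothelin receptor, stood at 24.4, 21.6 and 11.3 against 0.304, 0.197 and 1.1 CPM in the clones (adjusted p = 0.0194, or 0.1756) and at 12.4 and 20 against 9.76 and 11.4 CPM in the populations (log2 −0.58, adjusted p = 0.044). The population calls of Ednra and Plat were lost without the block, without MT194-Cre replicate 2 and without either MT486-Cre library, and that of Ednra also with only the groups compared. Glul, glutamine synthetase, had a log2 fold change of −1.56 in the clones (adjusted p = 0.0328, or 0.2098) and went from 160 and 107 to 105 and 71.1 CPM in the populations (log2 −0.60, adjusted p = 0.00249).

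Genes with large population differences did not keep 1 direction in the clones. Fhl1 stood at 0.0979, 0.19 and 0.15 CPM in the MT194 clones and at 9.51, 9.75 and 0.184 CPM in the MT486 clones, opposite in sign to the populations and overlapping. H19 stood at 112, 3.18 and 3.6 against 0.348, 1.38 and 0.506 CPM, with the sign of the populations (adjusted p = 0.148). Kctd12 stood at 1.52, 4.08 and 6.51 against 0.521, 0.296 and 0.138 CPM, also with the sign of the populations (adjusted p = 0.127). Neither passed the test in the clones.

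Of the 46 genes called in the clones as labelled, the following were not called in the populations. Gas5, a noncoding RNA that hosts small nucleolar RNAs, stood at 7.1, 9.68 and 8.81 CPM in the MT194 clones and at 49.1, 54.4 and 27.6 CPM in the MT486 clones (log2 2.36, adjusted p = 0.0149, or 0.07917 with clones 1 and 2 counted as 1), and its log2 fold change was 0.47 in the populations (adjusted p = 0.116). Pde8a, a phosphodiesterase, Piezo2, a mechanosensitive channel, Fam65b and Itgb6, an integrin subunit, had log2 fold changes of −5.55, −5.06, 4.74 and 3.86 in the clones and of 0.08, −0.38, 0.04 and 0.20 in the populations. In the 4 cell cycle lists the clone median was 0.36, against −0.01 for all genes tested in both. Of their 174 genes tested in the clones, 1 was called, beside 0.348% of all genes. It was Gmnn, which encodes the replication inhibitor geminin (adjusted p = 0.0192, or 0.09433).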

How the data were processed

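Poly(A) RNA-seq was used. The authors aligned single reads to mm10 with bowtie2, skipped alignments with a mapping quality under 30 and used HTSeq for counting. Raw counts of 24421 genes were deposited. The labels call the libraries stranded, and whether counting used the strand is not given in the sources used here. The study's own tests used DESeq2.

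Counts of the 20 populations were filtered by filterByExpr and fitted with edgeR 4.0.16 (R 4.3.3), TMM normalization, robust quasi-likelihood, 1 mean per group and a replicate block. The 15 clones were fitted without a block. The standard error is the log2 fold change divided by the square root of F. CPM are edgeR's. The steps were tested on simulated data.

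Replicate numbers pair the populations: between all 45 pairs of groups, deviations of same-numbered replicates from the group means correlated over genes (r from 0.42 to 0.73, and 0.688 between MT194-Cre and MT486-Cre). No 2 replicates of the same group agreed within sampling noise. MT486 clones 1 and 2 came nearest, and the clone test was repeated with them counted as 1, a choice made after seeing the data.

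Named genes were the NELF subunits, the 10 largest changes in each direction (mean count 50 or more, no overlap of the groups), up to 4 called members of each list, fixed cell cycle genes and the 3 largest in each direction with GFP and in the clones. The comparison, lists and named genes were chosen with earlier results of these data known. Lists were described, not tested. A gene among the largest falls and a marker are not reported here. The list of genes of mitochondrial DNA had no member in the files, and no skeletal muscle marker passed the filter.

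Alternatives were no block (a block for the clones), DESeq2 1.42.0, its size factors in edgeR, no filter, other fold thresholds, only the groups compared, and each library left out in turn. A library left alone in its group was taken to vary as the rest do. Positions are from GENCODE M21, in which Aim1 had no entry under that symbol, and primers from the study's supplement.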

Additional observations from a re-analysis of the deposited data

Results flagged for a closer look

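For 11 of the gene lists and for the 4 cell cycle lists together, the median difference between MT486 and MT194 went one way in both pairs with Cre and the other way in both pairs with GFP. Without MT194-Cre replicate 2 the median of the 4 cell cycle lists with Cre was −0.0286. The Cre medians of G2/M genes (−0.0457), G1 genes (−0.0272), CDK inhibitors (−0.00748) and metalloproteinases and TIMPs (0.00801) also changed sign without it. That of smooth-muscle genes was −0.0287 without MT486-Cre replicate 2. That of the respiratory chain and ATP synthase was −0.0155 without MT486-Cre replicate 1. These differences between Cre and GFP were not tested over a list, and 0 single genes passed the test of the difference. Higher with Cre and lower with GFP were the medians of G2/M genes (0.293 and −0.156), S-phase genes (0.268 and −0.0808), CDK inhibitors (0.257 and −0.0737), G1 genes (0.123 and −0.0959) and all 4 cell cycle lists (0.263 and −0.131), all on the log2 scale. The same order was found for smooth-muscle genes (0.117 and −0.0828), targets of p53 (0.103 and −0.128), ATF4 and serine synthesis genes (0.0668 and −0.148), NELF, DSIF and P-TEFb (0.0358 and −0.0644) and the respiratory chain and ATP synthase (0.0194 and −0.0594). Lower with Cre and higher with GFP were metalloproteinases and TIMPs (−0.335 and 0.051) and hypoxia and glycolysis genes (−0.128 and 0.0202). Of the medians within 1 pair, the smallest were near 0 (0.00703 for ATF4 genes with Cre in pair 1 and 0.00171 for hypoxia genes with GFP in pair 1).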

How the results depend on the processing

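The replicate block decided most calls: without it the comparison with Cre gave 10 in place of 371 and that with GFP 4 in place of 121, while a block by clone number left 7 of 46 in the clones. With Cre, 117 genes passed at a log2 fold change over 1 and 643 with no fold threshold, and with GFP 46 passed at over 1. Fitting only the groups compared gave 481 calls with GFP and 185 in the clones, where DESeq2 gave 800. With MT486 clones 1 and 2 counted as 1, a choice made after seeing the data, the clones gave 0. Leaving out 1 library gave 106 to 831 calls with Cre, 27 to 50 with GFP, 0 to 63 for the difference of differences and 0 to 207 in the clones. The cause was not tested. With Cre, DESeq2 (428 calls, 350 of them shared), DESeq2's size factors (373), no filter (364) and the 4 libraries alone (381, with 281 shared) stayed within 1.5 times of 371. The cell cycle median of 0.263 ranged from −0.0286 (without MT194-Cre replicate 2) to 0.635 (without MT194-Cre replicate 1) over fits without 1 library, added after seeing the data, was 0.0986 and 0.471 in the 2 pairs alone, and was 0.252 to 0.289 otherwise. No gene named for the comparison with Cre reversed its direction with a call. In each group of 2, error rests on 2 libraries, and low genes on few reads.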
